A study of Arabidopsis thaliana with 8 samples.

Results

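The comparison described here is that of the npr1-1 arrays labelled SA with the npr1-1 arrays labelled water, over all probe sets of the Affymetrix ATH1 chip. It holds 4 of the 8 arrays of the series, 2 for each label, and 22746 probe sets after 64 control probe sets were left out. A probe set is a group of short probes that reads the transcript of one gene or of several similar genes. The seedlings were 2-week-old Arabidopsis thaliana of wild-type Col-0 or of the npr1-1 mutant, grown in MS medium, and the medium was exchanged for water or for 2 mM SA (salicylic acid) for 24 h in the light. The groups were thus npr1-1 water, npr1-1 SA, Col-0 water and Col-0 SA, each with 2 biological replicates of whole seedlings. RNA of the complete seedling was used, so that a lower level of a transcript and a smaller share of the cells that hold it cannot be told apart. Of the probe sets, 13513 have 1 gene symbol, and these stand for 13355 genes in the counts of genes below. A level is the deposited log2 value of a probe set on an array, and a difference is the npr1-1 SA mean minus the npr1-1 water mean on that scale, positive where the arrays labelled SA were higher.

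SA is the hormone that plants accumulate when biotrophic pathogens attack them, and it switches on a broad defense program locally and in distant leaves (systemic acquired resistance). NPR1 binds SA and acts as a coactivator of TGA transcription factors, and it carries the larger part of the transcriptional response to the hormone. The npr1-1 allele is a classical loss-of-function mutant, recovered because defense markers fail to respond to SA in it. SA also represses genes of growth and photosynthesis, and part of its effects does not need NPR1.

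The labels of the npr1-1 arrays are open. Transcripts known to be induced by SA were far lower on the arrays labelled npr1-1 SA than on those labelled npr1-1 water, while the same transcripts were higher under SA in Col-0, as the values of UGT76B1, GRX480 and ECS1 below show. From the deposited values it cannot be told which of the npr1-1 labels belongs to the seedlings that were given SA, and the study's QPCR measurements are not analysed here. All directions are therefore by the deposited labels. If these 2 labels had been exchanged, each difference in npr1-1 would change its sign and keep its size and its p-value. NPR1 itself is not analysed here.

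Primers of the study serve to identify the transcripts that it measured with its own assays and that the chip measured too. They are shown 5′ to 3′ because 4 of these 5 genes were changed by more than 1 on the log2 scale in npr1-1, and the fifth, AT5G38700, changed in opposite directions in the 2 genotypes. The genes lie on chromosomes 1, 4 and 5.
GRX480 forward: cagggaaacggcgagagagt
GRX480 reverse: gcagcctcctcaccacatga
AT1G66100 forward: gacattctcgaaaacacaggtgatg
AT1G66100 reverse: catcggagttctggagaatggtt
MSRB9 forward: caaactgttcgacgacggaatc
MSRB9 reverse: gaaggaaggccagccacaac
AT1G05700 forward: tggcgaaatcggagaacaaat
AT1G05700 reverse: actgttccaaaccctcctttgc
AT5G38700 forward: gcatctcaaagccctaaatcatca
AT5G38700 reverse: aaatattggcgtctcgtcgaaag

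Between the npr1-1 labels, 6419 of 22746 probe sets differed at an adjusted p under 0.05 (28.2%), of which 3367 were higher under the SA label (14.8%) and 3052 lower (13.4%). Over genes, 1769 of 13355 were higher (13.2%) and 1563 lower (11.7%). The median difference over all genes was 0.00, and the median size of a called difference over probe sets was 0.77. The changes were uneven in size. At a difference of 2 or more on the log2 scale, 34 genes were higher (0.255%) and 118 lower (0.884%). At 4 or more, 16 genes were lower and none was higher, whereas at 1 or more the counts were close, with 493 genes higher and 513 lower. The standard error of a difference was 0.137 at the median probe set, and the smallest difference called was 0.33. The 2 arrays of one label lay entirely above those of the other in 28.8% of genes for the SA label and in 26.1% for the water label, so that non-overlap alone is common here. The number of arrays limits the precision.

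**Figure D1:**
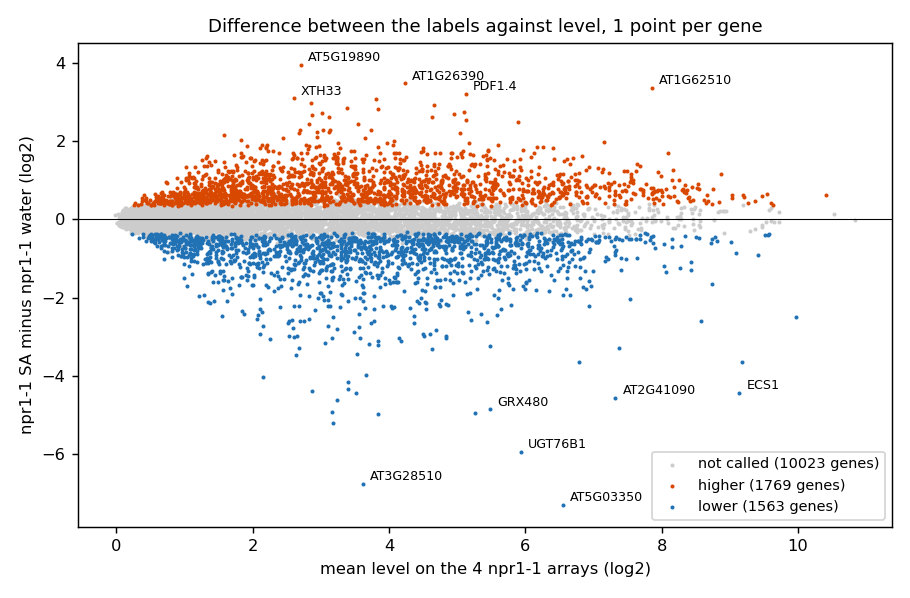
Difference between the npr1-1 labels (SA minus water, log2, y axis) against the mean level on the 4 npr1-1 arrays (log2, x axis), 1 point per gene, coloured by the call at an adjusted p under 0.05. The 1769 higher and 1563 lower genes spread over all levels above about 1, and the points beyond 4 all lie on the lower side, down to AT5G03350 at −7.30.

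How often a gene was called depended on its level. Of the 6348 genes with a mean level under 1 on the npr1-1 arrays, 1.84% were higher and 1.62% lower. Between levels of 3 and 5 the shares were 24.1% and 24.9%. Among the 311 genes at a level of 7 or over, 39.5% were higher and 22.5% lower. In each class from a level of 1 upward the largest fall was beyond 4 on the log2 scale, and the largest rise was not. The shares over all genes that are given beside groups of genes below are not matched for level.

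Most of the largest differences were in genes known only by their locus tag, as most genes here are (11799 of 13355). No role is given for them here. AT5G03350 had levels of 10.23 and 10.18 on the npr1-1 water arrays and of 3.05 and 2.76 on the npr1-1 SA arrays, a difference of −7.30 ± 0.152 (standard error, adjusted p = 5.66e-11). Its arrays did not overlap, and in Col-0 it went from 4.47 and 4.1 in water to 9.61 and 9.45 under SA. AT3G28510 was at 6.94 and 7.05 under the water label and at 0.07 and 0.40 under the SA label (−6.76 ± 0.183, adjusted p = 5.47e-10), so that on the SA arrays it lay at the bottom of the scale. In Col-0 this gene rose under SA, from 0.66 and 1.2 to 6.43 and 6.16. AT2G32160 (−5.20), AT5G55450 (−4.99) and AT1G19960 (−4.93) were also lower under the npr1-1 SA label and higher under SA in Col-0. AT3G60420 followed another order. It was at 7.89 and 7.59 under the npr1-1 water label and at 2.96 and 2.6 under the SA label (−4.96), but at 7.02 and 7.21 in Col-0 water and 6.59 and 6.51 in Col-0 SA, a small fall (−0.57, adjusted p = 0.0193). AT3G48640 (−4.62) likewise fell in Col-0 (−1.32), and AT3G51450 was lower in npr1-1 (−4.15) with no call in Col-0 (−0.11, adjusted p = 0.644).

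On the other side, AT5G19890 was at 0.78 and 0.68 under the npr1-1 water label and at 4.41 and 4.98 under the SA label (3.96 ± 0.190, adjusted p = 4.99e-08). Col-0 had its highest level of this gene in water, at 5.95 and 6.18, and 3.48 and 3.1 under SA. AT1G26390 (3.48), AT1G62510 (3.37), AT4G22470 (3.08) and AT2G40010 (2.99) came next among genes without a name. AT2G40010 stood apart from the others, since its levels were between 1.26 and 1.46 on the 6 arrays of the other groups and at 4.37 and 4.33 on the npr1-1 SA arrays. AT4G22470 was at 8.07 to 8.23 on all 4 Col-0 arrays, at 2.13 and 2.41 under the npr1-1 water label and at 5.40 and 5.29 under the npr1-1 SA label. Of the 15 genes with the largest rise, 13 had a locus tag only, and so had 12 of the 15 with the largest fall. These counts are near the share over all genes, where 11799 of 13355 have a locus tag only.

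Genes of the SA list were among the largest falls, with UGT76B1 next in size after AT5G03350 and AT3G28510. UGT76B1, a glucosyltransferase that acts on SA and on related immune signals, was at 8.88 and 8.92 under the npr1-1 water label and at 3.01 and 2.92 under the SA label. The difference was −5.94 ± 0.124 (adjusted p = 5.66e-11), 61.2-fold in linear terms. In Col-0 the levels were 4.71 and 4.87 in water and 9.57 and 9.75 under SA, so that the arrays labelled npr1-1 SA lay below Col-0 water. GRX480, a glutaredoxin that binds TGA factors, was at 7.85 and 7.97 under the npr1-1 water label and at 3.06 and 3.05 under the SA label (−4.86 ± 0.123, adjusted p = 2.91e-10). Both arrays labelled npr1-1 SA were lower than the Col-0 water arrays (6.87 and 6.67), and both labelled npr1-1 water were close to Col-0 SA (8.02 and 7.93). ECS1, a cell wall protein, was at 11.40 and 11.32 under the water label and at 6.90 and 6.95 under the SA label (−4.44 ± 0.123, adjusted p = 6.43e-10), against 8.62 and 8.42 in Col-0 water and 10.79 and 10.67 in Col-0 SA. Each of these 3 genes had a called interaction, the test of whether the SA minus water difference is the same in the 2 genotypes.

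Of the 47 loci of the SA list (synthesis, conjugation, perception and downstream genes), 7 were measured by a named probe set. The 3 genes above were lower, 1 was higher and 3 were not called, against 13.2% higher and 11.7% lower over all genes, and the median of the 7 differences was −0.22 against 0.00. WES1, a GH3 enzyme that conjugates auxin and SA to amino acids, was the higher one, with 6.53 and 6.34 under the water label and 6.98 and 7.15 under the SA label (0.63 ± 0.140, adjusted p = 0.00482), and it fell in Col-0 (−0.50). SAG101, a partner of EDS1 in immune signaling, had −0.17 (adjusted p = 0.461) in npr1-1 and fell in Col-0 (−1.09). UGT74F1, which makes SA glucosides, and BSMT1, which makes methyl salicylate, were below a level of 1 on all 8 arrays and had −0.22 and 0.17 in npr1-1.

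**Figure D2:**
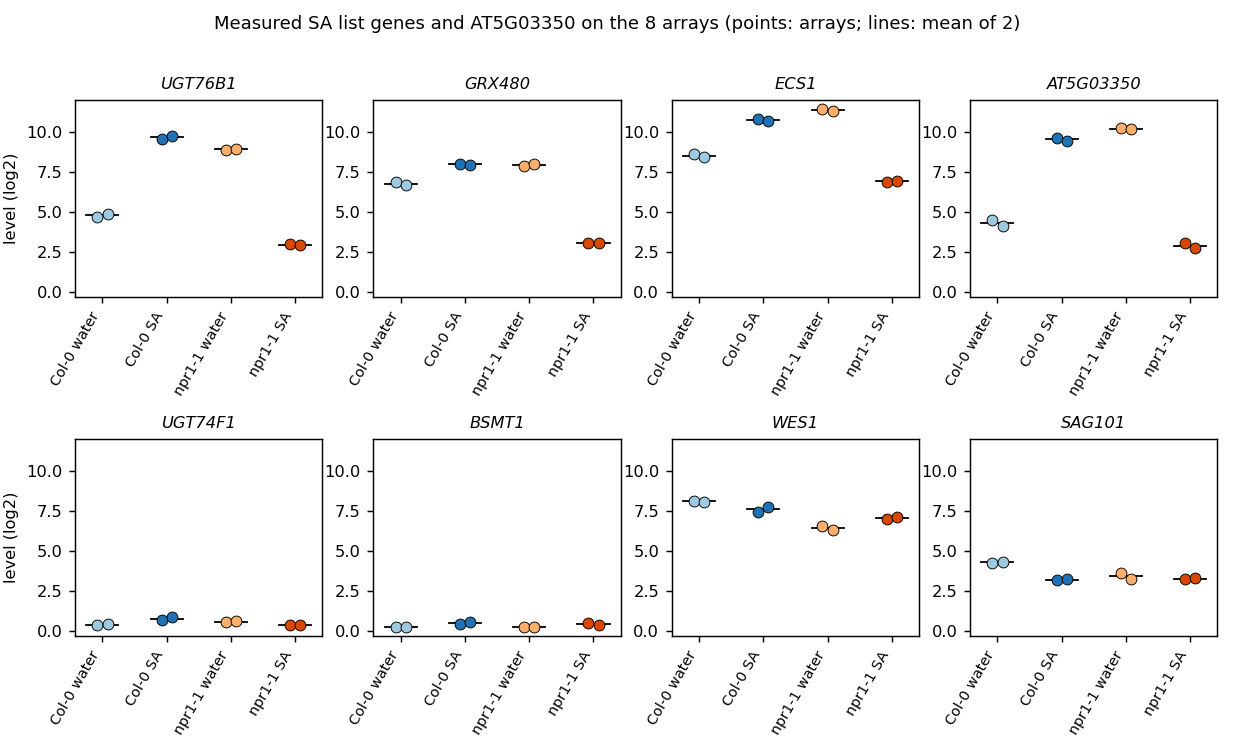
Levels (log2, y axis) of the 7 measured genes of the SA list and of AT5G03350 on the 8 arrays by group (x axis), with a point for each array and a line at the mean of 2. In UGT76B1, ECS1 and AT5G03350 the npr1-1 water and Col-0 SA arrays are high and the npr1-1 SA arrays lie below Col-0 water, while UGT74F1 and BSMT1 stay below 1.

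Col-0 was used to see where npr1-1 differed from the wild type. In Col-0, 10.1% of probe sets were higher under SA and 13.4% lower, and of the genes 1158 were higher (8.67%) and 1509 lower (11.3%). Of the 1769 genes higher under the npr1-1 SA label, 817 were lower under SA in Col-0 (46.2%), 77 were higher there (4.35%) and 875 were not called there. Of the 1563 genes lower under the npr1-1 SA label, 549 were higher in Col-0 (35.1%), 169 were lower there (10.8%) and 845 were not called. The 817 genes make up 54.1% of the genes that Col-0 lowered, and the 549 make up 47.4% of those it raised. The interaction was called at 7274 probe sets (32.0%), among them 5228 of the 6419 called in npr1-1 (81.4%). This test rests on the labels as well. With the npr1-1 labels exchanged it becomes a test of the sum of both differences, which was called at 3608 probe sets.

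**Figure D3:**
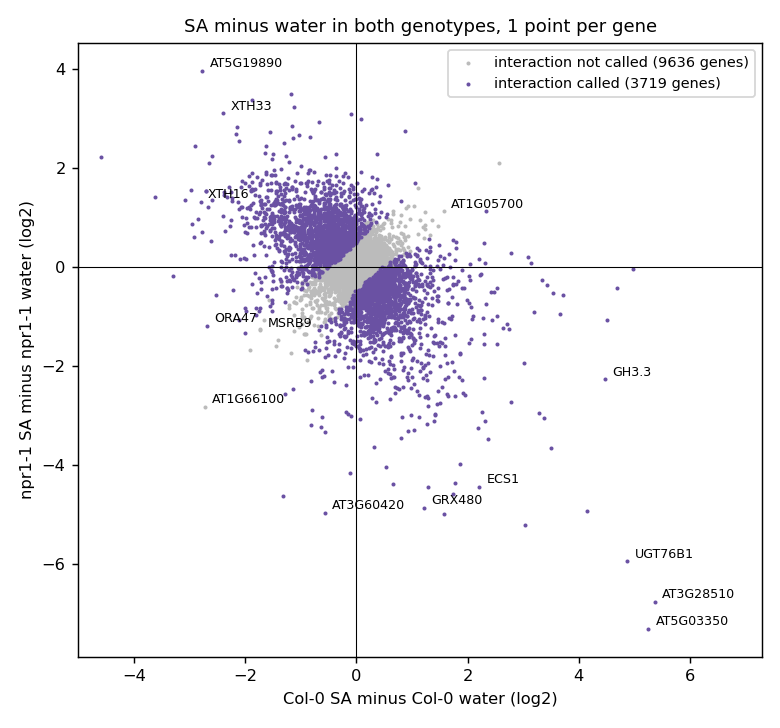
SA minus water on the log2 scale in npr1-1 (y axis) against the same in Col-0 (x axis), 1 point per gene, with genes whose interaction was called at an adjusted p under 0.05 in purple. Most large npr1-1 differences lie in the quadrants of opposite sign, with UGT76B1 at 4.87 in Col-0 and −5.94 in npr1-1, and AT1G66100 and MSRB9 are among those lower in both.

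The 118 genes lower by at least 2 in npr1-1 had median levels of 5.25 and 5.23 on the npr1-1 water arrays and 2.33 and 2.12 on the npr1-1 SA arrays. Their medians in Col-0 lay between these, at 3.60 and 3.76 in water and 4.51 and 4.44 under SA. Of them, 84 were higher under SA in Col-0, 15 lower and 19 not called. The 34 genes higher by at least 2 had medians of 2.03 and 2.08 under the npr1-1 water label and 4.48 and 4.69 under the SA label, against 4.23 and 3.85 in Col-0 water and 2.98 and 3.01 in Col-0 SA. Of these, 27 were lower under SA in Col-0, 2 higher and 5 not called. The genes changed most in npr1-1 were thus for the larger part those that SA moved the other way in Col-0, in both directions.

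Genes that went the same way in both genotypes were fewer. AT1G66100, which the study took as a gene repressed by SA without NPR1, was at 6.09 and 6.12 under the npr1-1 water label and at 3.28 and 3.3 under the SA label (−2.82 ± 0.139, adjusted p = 6.32e-08). In Col-0 it went from 5.38 and 5.40 to 2.87 and 2.47 (−2.72), and the interaction was not called (adjusted p = 0.793). MSRB9, a methionine sulfoxide reductase that repairs oxidized methionine, had −1.28 ± 0.141 in npr1-1 (adjusted p = 3.35e-05) and −1.73 in Col-0, with an interaction at an adjusted p of 0.123. AT1G05700, taken by the study as induced without NPR1, was at 0.73 and 0.28 under the npr1-1 water label and at 1.59 and 1.66 under the SA label (1.12 ± 0.152, adjusted p = 0.000163), against 1.57 in Col-0 (interaction adjusted p = 0.149). These genes were placed in their classes by the study on these same arrays, so that their directions are not independent evidence. For them the npr1-1 labels run the way of the Col-0 labels, which is the reverse of UGT76B1. AT5G38700, in the study's class of NPR1-dependent repression, fell in Col-0 (−2.92) and was slightly higher under the npr1-1 SA label (1.84 on both arrays labelled water, 2.46 and 2.45 on those labelled SA, 0.61 ± 0.126, adjusted p = 0.00294). In all, 8 of the 23 genes of the study's own assays, its internal controls included, were measured by a named probe set. Among them AT3G26130 and AT4G23780 stayed below 1 on all 8 arrays.

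Other members of this same-direction set were CML37, a calmodulin-like calcium sensor (−1.60 in npr1-1, −1.45 in Col-0), MSRB6 (−1.67 and −1.91), ORA47, an ERF-type activator of jasmonate synthesis (−1.19 and −2.68), and OPCL1, a CoA ligase of jasmonate synthesis (−2.30 and −0.81). The interaction was called for ORA47 (adjusted p = 0.000197) and OPCL1 (adjusted p = 0.000365), and not for CML37 (adjusted p = 0.705) or MSRB6 (adjusted p = 0.458). For the last 2 the arrays thus placed both genotypes at the same sign and close in size.

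Most measured photosynthesis genes were higher under the npr1-1 SA label, and most were lower under SA in Col-0. Of 25 nuclear genes of the photosystems, their antenna, the NDH complex and their assembly, 19 were higher, none was lower and 6 were not called (76.0% higher against 13.2% over all genes), with a median difference of 0.70 against 0.00. In Col-0, 20 of the 25 were lower under SA and the median was −1.02. Of all measured genes at a level of 7 or over, 39.5% were higher in npr1-1, and the 25 were not compared at a like level. CaS, a calcium-sensing protein of the thylakoid, was at 5.35 and 5.31 under the water label and at 7.12 and 7.27 under the SA label (1.86 ± 0.124, adjusted p = 6.6e-07). LPA2, needed to assemble photosystem II, was at 3.44 and 3.32 and then at 4.94 and 4.92 (1.55 ± 0.136, adjusted p = 5.92e-06). The arrays of the 2 labels did not overlap in either gene, and in both the npr1-1 SA arrays were above Col-0 water as well. LIL3:1, a light-harvesting-like protein, had 1.36, CYTC6A, a cytochrome of the thylakoid lumen, 1.32, and PSAN, a subunit of photosystem I, 1.16. Among the 6 not called was LHCB4.3, an antenna protein, at 1.32 and 1.94 under the water label and 1.33 and 1.28 under the SA label (−0.32, adjusted p = 0.216). The count of higher genes stayed within 1.5 times of 19 without any one array.

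Genes of chlorophyll synthesis and of the Calvin cycle were called higher more often than lower. Over all genes 13.2% were higher and 11.7% lower, and at a level of 7 or over 39.5% and 22.5%. The groups of this paragraph were not compared at a like level. Of 11 genes of chlorophyll and heme synthesis, 5 were higher and 1 lower. CHLI2, a subunit of magnesium chelatase, was at 2.54 and 2.43 under the water label and at 3.81 and 4.15 under the SA label (1.5 ± 0.164, adjusted p = 3.21e-05). CHLM, the methyltransferase after that step, had 1.27 ± 0.133 (adjusted p = 2.28e-05), and PORB, a light-dependent protochlorophyllide reductase, 0.84 ± 0.114 (adjusted p = 0.000167). The count fell to 3 without npr1-1 water replicate 2 or without either npr1-1 SA array. HEMA2, a glutamyl-tRNA reductase, was the lower one (−0.46, adjusted p = 0.0329) and was no longer called without either Col-0 water array, npr1-1 water replicate 1 or either npr1-1 SA array. Of 9 genes of the Calvin cycle, stromal thioredoxins and chaperonins, 6 were higher and 1 lower, among them PRK and SBPASE, both light-regulated enzymes of the cycle (0.78 ± 0.131 and 0.75 ± 0.124), RCA, the activase of Rubisco (0.63 ± 0.128), and NTRC, a thioredoxin reductase of the chloroplast (0.99 ± 0.128). The lower one, a chaperonin subunit (Cpn60beta3, −0.54), lost its call without any one npr1-1 array. The chaperonin subunits Cpn60beta2 (1.03 ± 0.134) and Cpn60beta4 (1.03 ± 0.119) were among the higher genes. On the shorter photosynthesis list, 6 of 7 measured genes were higher, but only 3 without npr1-1 water replicate 1 or npr1-1 SA replicate 2.

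**Figure D4:**
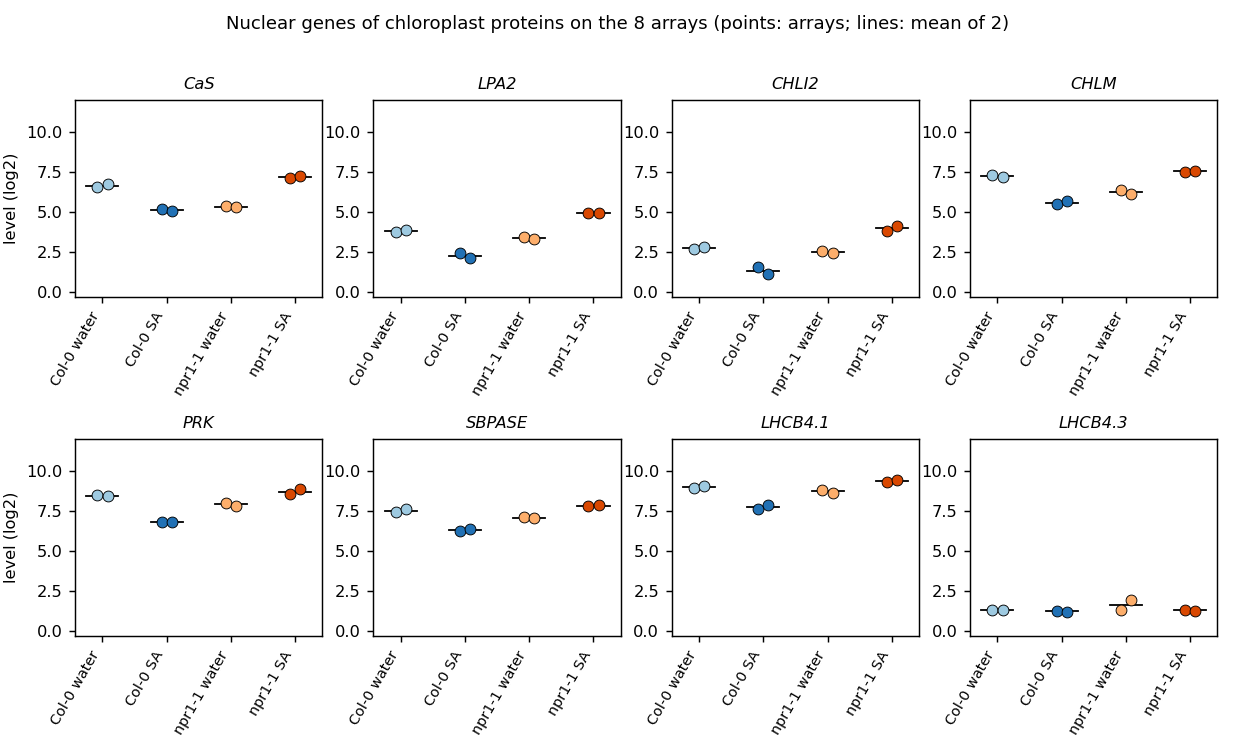
Levels (log2, y axis) of 8 nuclear genes of chloroplast proteins on the 8 arrays by group (x axis), with a point for each array and a line at the mean of 2. Apart from LHCB4.3, each gene is lowest in Col-0 SA and higher under the npr1-1 SA label than under the npr1-1 water label, by 0.63 (LHCB4.1) to 1.86 (CaS).

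Most genes of the plastid genome were not called. Of 69 measured, 17 were higher (24.6% against 13.2% over all genes), none was lower and 52 were not called, with a median of 0.21 against 0.00. rps18, a plastid ribosomal protein gene, was at 5.69 and 6.15 under the water label and at 6.99 and 6.80 under the SA label (0.97 ± 0.161, adjusted p = 0.000686). rbcL, the large subunit of Rubisco, had 0.65 ± 0.141 (adjusted p = 0.0041) and −1.24 in Col-0. Among the 52 not called, psaA, a core subunit of photosystem I, had −0.50 (adjusted p = 0.0872). The cRNA had been made with an oligo(dT) primer, and the part of this in the levels of plastid transcripts was not tested. Leaving out replicate 2 of npr1-1 water reduced the 17 to 9, and leaving out replicate 2 of npr1-1 SA reduced them to 10. On the 5 nuclear chromosomes, the share of genes called higher was between 12.7% and 13.9%. Among 19 nuclear genes of RNA editing and splicing in organelles, 7 were higher and none lower. PAC, needed for plastid RNA maturation, had 1.42 ± 0.193 (adjusted p = 0.000169) and was not called in Col-0 (−0.14, adjusted p = 0.699), with a called interaction (adjusted p = 0.000817).

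Some cell wall genes of the growth type were higher. Of 28 xyloglucan endotransglucosylases and expansins, which loosen the wall during cell expansion, 11 were higher (39.3% against 13.2% over all genes), 1 was lower and 16 were not called, while 11 were lower in Col-0. XTH33 was at 1.06 and 1.03 under the water label and at 4.04 and 4.25 under the SA label (3.1 ± 0.154, adjusted p = 6.45e-08), and in Col-0 it went from 3.73 and 3.27 to 1.13 and 1.09. XTH19 (1.46 ± 0.140), XTH16 (1.31 ± 0.131) and EXLA2, an expansin-like protein (1.57 ± 0.118), were likewise higher under the npr1-1 SA label and lower under SA in Col-0. EXPA8 was the lower one (−0.62), and it lost its call without npr1-1 water replicate 2 or npr1-1 SA replicate 2. Of 9 tubulins and actins, 4 were higher and none lower, which became 2 without npr1-1 water replicate 2. TUB7, a beta-tubulin, had 0.80 ± 0.132 and ACT11, an actin, 1.36 ± 0.146. SKU5, a wall-associated protein of directional root growth, had 1.63 ± 0.137, and TBL25, of a family of wall polysaccharide acetyltransferases, 1.82 ± 0.131. By contrast only 1 of 15 GH9 endoglucanases was called, GH9B7 (1.25). Members of such families are similar in sequence, and whether a probe set read more than 1 of them was not tested.

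A defensin-like peptide and 2 ER body genes were among the higher genes. PDF1.4, a defensin-like peptide, was at 3.43 and 3.60 under the water label and at 6.84 and 6.64 under the SA label (3.22 ± 0.141, adjusted p = 2.62e-08), below both Col-0 water arrays (7.82 and 7.90). Of 15 defensins, thionins and other small cysteine-rich peptides, 3 were higher and none was lower, a share higher near the 13.2% over all genes. This group was set by symbol, so that peptides known only by a locus tag are not counted in it. PYK10, the beta-glucosidase of ER bodies, had 1.54 ± 0.139 (adjusted p = 7.15e-06), and NAI2, needed to form these bodies, 1.70 ± 0.154 (adjusted p = 7.67e-06). Both fell in Col-0, by 2.70 and 1.73. BGLU46 (2.21 ± 0.139) was the most changed of 21 beta-glucosidases, of which 3 were higher and 3 lower (14.3% each, near the shares over all genes). Of 23 cytochrome P450s, most of them of the CYP71B branch, 7 were higher and none lower, with CYP71B36 at 1.65 ± 0.128 and CYP71B26 at 1.55 ± 0.144. CYP71B26 was not called in Col-0 (0.27, adjusted p = 0.235).

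Of 17 genes of RNA polymerases and ribosome biogenesis, 8 were higher (47.1% against 13.2% over all genes), 1 was lower and 8 were not called, with a median of 0.40. In Col-0, 1 of them was higher and 1 lower. NRPA1 and NRPA2, the large subunits of RNA polymerase I, were at 1.07 and 1.02 and at 2.41 and 2.26 under the water label, and at 2.35 and 2.18 and at 3.19 and 3.3 under the SA label. Their differences were 1.22 ± 0.147 (adjusted p = 6.64e-05) and 0.91 ± 0.161 (adjusted p = 0.00107). RRP41, an exosome subunit, had 0.95 ± 0.126. The lower gene, NRPB7, a subunit of RNA polymerase II, had −0.47 and was not called without any one of the 4 npr1-1 arrays. Branched-chain amino acid breakdown split, with 4 of 9 genes higher, such as MCCA (0.86 ± 0.120) and IVD (0.68 ± 0.122), both enzymes of leucine breakdown, and ETFALPHA, of the electron transfer flavoprotein that serves the same pathway, lower (−0.98 ± 0.140).

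In the ER folding group and in a group of other chaperones, the genes called were lower. Chaperonins were counted with the Calvin cycle genes above. Of 14 genes of ER folding and of the unfolded protein response, 8 were lower (57.1% against 11.7% over all genes), none was higher, and the median was −0.65. In Col-0, 2 were higher and none was lower. Of all measured genes, 24.9% were lower in npr1-1 between levels of 3 and 5, and 30.1% between 5 and 7. The 14 genes were not compared at a like level. ATERDJ3B, a J-protein partner of the ER chaperone BiP, was at 6.43 and 6.22 under the water label and at 5.03 and 5.21 under the SA label (−1.2 ± 0.129, adjusted p = 2.8e-05). BZIP60, a transcription factor that is activated by ER stress, was at 6.52 and 6.79 and then at 5.56 and 5.65 (−1.05 ± 0.138, adjusted p = 0.000129), with no difference called in Col-0 (−0.02). CRT1b, a calreticulin, had −0.81 ± 0.119, and BZIP28, another ER stress sensor, −0.37 (adjusted p = 0.111). Of 14 other chaperones and co-chaperones, 7 were lower and none higher. Fes1A, a co-chaperone of cytosolic Hsp70, was at 8.09 and 8.01 under the water label and at 5.77 and 5.88 under the SA label (−2.22 ± 0.144, adjusted p = 5.51e-07). SGT1A, a co-chaperone of immune receptors, had −1.70 ± 0.127 (adjusted p = 1.67e-06), and Hop3, a link between Hsp70 and Hsp90, −1.38 ± 0.188 (adjusted p = 0.000166).

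Of 17 glutaredoxins, methionine sulfoxide reductases and peroxide enzymes, 10 were lower (58.8% against 11.7% over all genes), 2 were higher and 5 not called, with a median of −0.85, while in Col-0 5 were higher and 5 lower. Besides GRX480, GRXC2, a glutaredoxin, was at 8.68 and 8.79 under the water label and at 7.56 and 7.24 under the SA label (−1.34 ± 0.134, adjusted p = 1.6e-05). ROXY2, a glutaredoxin of the same plant-specific class as GRX480, had −1.47 ± 0.141, and GR1, a glutathione reductase, −0.94 ± 0.123. TAPX, the thylakoid ascorbate peroxidase, went the other way (0.99 ± 0.127), as other chloroplast genes did. The count of higher genes was 4 after quantile normalization and 1 when replicate 2 of either npr1-1 label was left out.

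Of 49 UDP-glycosyltransferases, 13 were lower (26.5% against 11.7% over all genes), 6 higher and 30 not called, with a median of −0.10, and 10 were higher in Col-0 against 2 lower. After UGT76B1 came UGT73D1, at 4.32 and 4.46 under the water label and at 2.24 and 2.07 under the SA label (−2.23 ± 0.125, adjusted p = 1.67e-07), with 2.29 in Col-0. GT72B1, which conjugates phenolic xenobiotics, had −1.54 ± 0.132 in npr1-1 and 1.39 in Col-0. UGT88A1 (0.79 ± 0.120) was higher in npr1-1 and fell in Col-0 (−0.82). Of 14 glutathione transferases, 4 were lower and 2 higher. GSTU25 was at 1.99 and 2.40 under the water label and at 0.19 and 0.28 under the SA label (−1.96 ± 0.151, adjusted p = 2.11e-06), whereas GSTU18 had 1.28 ± 0.134. The higher count became 1 without the second replicate of either npr1-1 label.

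Among hormone genes, GH3.3, which conjugates auxin to amino acids, was at 5.08 and 5.27 under the npr1-1 water label and at 3.01 and 2.81 under the SA label (−2.27 ± 0.142, adjusted p = 4.3e-07), against 3.37 and 3.05 in Col-0 water and 7.69 and 7.66 in Col-0 SA. IAGLU, an auxin glucosyltransferase, had −1.26 ± 0.122 and 2.74 in Col-0. Both npr1-1 water arrays were between the Col-0 groups in these 2 genes. Of 17 auxin genes, 3 were lower, 1 was higher and 13 were not called. Of 9 genes of jasmonate synthesis and response, 2 were lower and 1 higher, and the jasmonate-responsive defensin PDF1.2 had 0.09. Over all genes 24.9% were called in either direction, 13.2% higher and 11.7% lower. Of 12 cold and dehydration genes, 4 were higher (33.3%), such as COR47 (0.73 ± 0.133) and OSM34 (1.00 ± 0.123), and 3 lower, such as LTI30 (−1.28 ± 0.124) and RD2 (−1.58 ± 0.134).

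In sulfur metabolism, 5 of 10 genes were lower and 2 higher, against 11.7% lower and 13.2% higher over all genes. SUFE2, an activator of cysteine desulfurization for iron-sulfur clusters, was at 4.71 and 4.64 under the water label and at 1.74 and 1.56 under the SA label (−3.03 ± 0.149, adjusted p = 6.32e-08). APS3, an ATP sulfurylase of sulfate assimilation, had −1.60 ± 0.122 and was not called in Col-0 (−0.01, adjusted p = 0.974), and the interaction was called (adjusted p = 2.12e-05). The count of higher genes was 1 without either npr1-1 water array or npr1-1 SA replicate 1. Among transporters and sugar enzymes, NRT2.5, a high-affinity nitrate transporter, was at 3.15 and 3.52 and then at 0.77 and 0.80 (−2.54 ± 0.187), and cwINV6, a fructan exohydrolase of the cell wall, at 5.40 on both and then at 2.47 and 2.1 (−3.11 ± 0.146). Of 14 SWEET sugar transporters, SWEET4 (−1.80 ± 0.147) and SWEET11 (−1.23 ± 0.127) were lower, and SWEET17, of the vacuole, was higher (1.03 ± 0.169). A second higher SWEET gene lost its call without the first replicate of either npr1-1 label.

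Respiration, autophagy and ubiquitin genes were lower where they were called. Of 18 genes of external NADH dehydrogenases, the TCA cycle and citrate cleavage, 6 were lower and none higher, and 6 were higher in Col-0. The shares over all genes were 11.7% lower and 13.2% higher in npr1-1, and 8.67% higher in Col-0. NDB2, an external NADH dehydrogenase of mitochondria, was at 3.85 and 3.60 under the water label and at 1.49 and 1.51 under the SA label (−2.22 ± 0.128, adjusted p = 2.17e-07), and IDH-VI and IDH-V, subunits of isocitrate dehydrogenase, had −1.51 ± 0.130 and −1.12 ± 0.123. Of 10 autophagy genes, 4 were lower, which became 2 without npr1-1 water replicate 2 or npr1-1 SA replicate 2, and 7 were higher in Col-0. ATG8B, which coats the autophagosome membrane, had −1.02 ± 0.152 (adjusted p = 0.000316) and 1.67 in Col-0, and its relative ATG8E 0.25 (adjusted p = 0.294). Of 24 ubiquitin-conjugating and ubiquitin-specific enzymes, 5 were lower and none higher, with 3 lower and 2 higher without npr1-1 water replicate 1. PUB19, a U-box ubiquitin ligase, was at 5.44 and 5.46 and then at 2.31 and 2.15 (−3.22 ± 0.139, adjusted p = 2.27e-08). PUB24, a ligase that dampens immune signaling, had −2.38 ± 0.167. The other measured PUB genes were not called and lay on both sides of zero, such as PUB23 (−0.31, adjusted p = 0.186) and PUB22 (0.22, adjusted p = 0.347). RING1, a ligase of programmed cell death, had −2.09 ± 0.163.

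**Figure D5:**
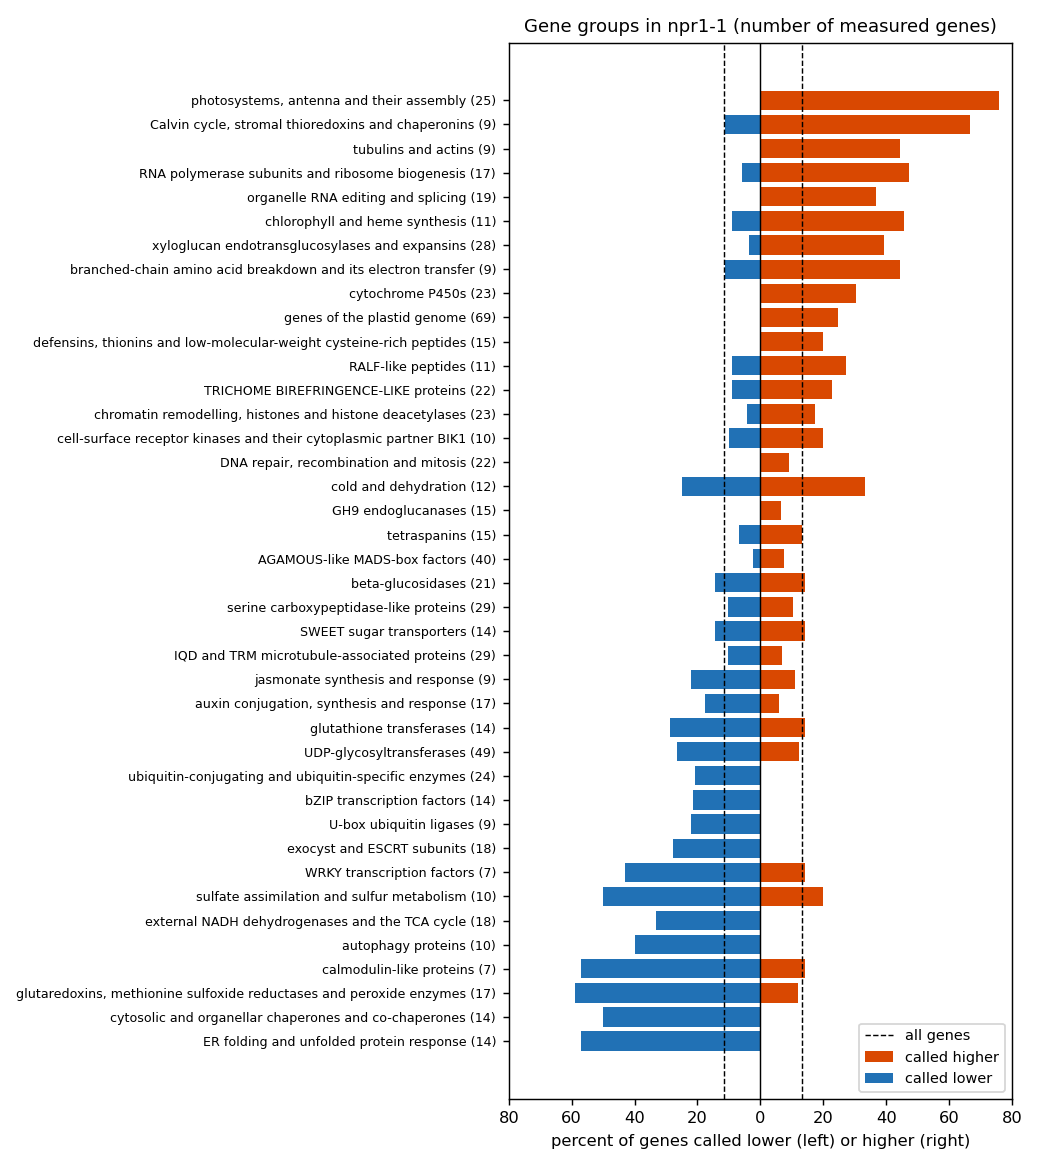
Percent of the measured genes of each of 40 groups (number in brackets) that were called higher (right, orange) or lower (left, blue) under the npr1-1 SA label, with dashed lines at the shares over all genes, 13.2% and 11.7%. Photosystem genes have 76.0% higher and none lower at the top, and the genes placed by symbol under ER folding 57.1% lower and none higher at the bottom.

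Calcium sensors and transcription factors gave smaller counts. The shares over all genes were 11.7% lower and 13.2% higher. Of 7 calmodulin-like genes, 4 were lower and 1 higher, the latter not without the first replicate of either npr1-1 label. CML38, among the lower ones (−0.41, adjusted p = 0.0495), lost its call under 9 alternatives, among them quantile normalization. CML43 was at 2.33 and 2.35 under the water label and at 0.97 and 0.62 under the SA label (−1.54 ± 0.169) and rose in Col-0 (1.53), and CML30 had −1.13 ± 0.116 with 0.04 in Col-0. Of 7 WRKY factors, 3 were lower and 1 higher, and the 3 became 1 without npr1-1 SA replicate 1. WRKY53, a regulator of senescence and defense, was at 6.45 and 6.67 under the water label and at 4.91 and 4.96 under the SA label (−1.62 ± 0.123, adjusted p = 1.91e-06), whereas WRKY6, another senescence factor, had 0.27 (adjusted p = 0.108). Of 14 bZIP factors, 3 were lower, 2 of them the ER stress factors BZIP60 and BZIP17.

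In several families the shares called were below or near those over all genes (13.2% higher and 11.7% lower). Of 40 AGAMOUS-like MADS-box genes, 36 were not called, and 32 were below a level of 1 on all npr1-1 arrays. Of 22 genes of DNA repair, recombination and mitosis, 2 were called, both higher, and neither without npr1-1 water replicate 2 or without npr1-1 SA replicate 1, and of 29 serine carboxypeptidase-like genes 3 were higher and 3 lower (10.3% each). The 23 chromatin genes, which include SNF2-type remodelers, histones and histone deacetylases, had 4 higher, 1 lower and a median of −0.02. The higher ones were CHR23, HON4, HTB1 and HIS1-3, and the lower one was BSH, a subunit of SWI/SNF complexes (−0.82). Their number fell to 2 when replicate 2 of npr1-1 water or replicate 1 of npr1-1 SA was left out and to 1 for replicate 2 of npr1-1 SA. BSH lost its call in the first 2 of these cases.

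Neighbouring genes were also counted in pairs. Among 5188 pairs of adjacent measured genes, both were higher in 125 (2.41%) and both lower in 110 (2.12%), and 159 pairs held 1 of each. Of single genes, 13.2% were higher and 11.7% lower. Whether adjacent pairs went the same way more often than unrelated pairs was not tested. In 7 pairs both changed the same way by at least 1.5 on the log2 scale, such as AT3G48640 and AT3G48650 (−4.62 and −3.03), AT5G52750 and AT5G52760 (−1.92 and −3.64) and AT1G15250 and AT1G15260 (1.74 and 2.04). Whether the probe sets of such pairs read similar copies was not tested.

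The state of the arrays bears on these counts. Replicates correlated at 0.994 to 0.996 over all probe sets, and npr1-1 water with npr1-1 SA at 0.955 to 0.957. The npr1-1 SA arrays correlated at 0.960 to 0.963 with Col-0 water and at 0.922 to 0.925 with Col-0 SA. The npr1-1 water arrays correlated at 0.958 to 0.961 with Col-0 water and at 0.957 to 0.959 with Col-0 SA. Of the control transcripts that show RNA quality, the ubiquitin 3′ minus 5′ difference was 0.77 and 1.15 under the npr1-1 water label and 1.87 and 1.42 under the SA label, without overlap, while those of actin (4.09 and 6.07, then 5.41 and 4.62) and GAPDH (0.76 and 1.39, then 1.5 and 0.79) overlapped. Its part in the differences was not tested. Few markers of single tissues were measured: 4 of 16 flower and pollen markers, all below a level of 1 on the npr1-1 arrays, 3 of 11 guard cell markers (FMA, SPCH and MUTE) and 2 of 18 root markers, and none of these was called. Of 13 epidermis markers 1 was measured and was higher (0.61), the 1 meristem marker measured was not called, and no marker of vasculature or seed was measured by a named probe set. The 7 measured genes of the photosynthesis list had a median level of 8.45.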

How the data were processed

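Whole seedlings of 4 groups, 2 arrays each, were measured on the Affymetrix ATH1 array. The deposited values are log2 expression values that the authors made with RMA, in affylmGUI per the methods, whereas Affymetrix Expression Console is given in the submitters' processing notes. Versions are not given in the sources used here, and array background and detection calls were not used here. The 64 control probe sets were left out. A model of group means was fitted to all 8 arrays with limma 3.58.1 in R 4.3.3 (lmFit, contrasts.fit and eBayes), and p-values were adjusted by Benjamini-Hochberg over 22746 probe sets and called under 0.05. Errors are standard errors of the fit. The interaction is the npr1-1 difference minus the Col-0 difference. The steps were tested on simulated data.

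Gene names come from GEO's platform annotation, updated with the reference gene table (TAIR10.1). Of all probe sets, 503 with several symbols and 8730 with none listed were tested but not named, and 77 kept the name of the annotation. Where a gene had several probe sets (147 genes), the brightest on average was kept. Only 1556 genes have a name other than the locus tag.

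The members and lists were chosen with earlier results of these data known. Of the 31 lists, 6 members were dropped because symbol and locus did not match the reference. The 40 families were set by symbol after annotation and values had been seen. Named genes are the 15 most raised and the 15 most lowered of the called genes whose arrays do not overlap, the SA list, up to 4 members per list or family by smallest adjusted p with members for contrast, and genes of the study's own transcript assays. To these were added, after values were seen, the 20 most raised and 20 most lowered genes that carry a gene name. The alternatives tried were a block for the replicate number, npr1-1 arrays alone, 2 further normalizations, a filter on dim probe sets, other variance models and thresholds, and each array left out. NPR1 is not analysed here, and promoter motifs were not run because no promoter sequence was used here.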

Additional observations from a re-analysis of the deposited data

Results flagged for a closer look

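The SA minus water difference was set against that of Col-0, and the difference between the genotypes (npr1-1 minus Col-0, by the deposited labels) passed the limma interaction test at 7274 probe sets. Among the genes of the SA list it was −10.81 for UGT76B1, −6.65 for ECS1, −6.06 for GRX480, −0.58 for UGT74F1, 1.13 for WES1 and 0.93 for SAG101. Among the genes that the study followed with its own assays it was 3.53 for AT5G38700. It was 0.64 for AT4G29030, which the study used as an internal control and whose call in npr1-1 was lost under 9 alternatives. All of these rest on the npr1-1 labels, which are open. With 2 arrays per group no single array could be tested as an outlier.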

How the results depend on the processing

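With the deposited labels, no named gene turned from a call in one direction to a call in the other under the alternatives tried. Without moderation of the variances, 3978 probe sets were called in npr1-1, 2012 higher and 1966 lower, against 6419 (3367 and 3052), while the counts of genes changed by at least 2 (34 and 118) were the same as before. Asking for a change of at least 1 gave 493 and 513 genes, and counting all probe sets at 2 gave 87 higher and 248 lower. Exchanging the npr1-1 labels, an alternative chosen after seeing the data, turns every npr1-1 sign by construction and gave 3608 probe sets for the interaction. Leaving out each array in turn gave 5047 to 6452 probe sets called, 2639 to 3390 higher and 2350 to 3062 lower, 34 to 40 genes higher and 115 to 123 lower by at least 2, and 6321 to 6707 probe sets for the interaction; the lone array of a group was assumed to vary like the others. Same-numbered arrays did not deviate together (correlations of −0.19 to 0.08), and with the replicate number as a block 6242 probe sets were called (3281 higher, 2961 lower; interaction 7087). The crossed pairing, also chosen after seeing the data, gave 6325. Median centring moved the median difference to −0.03 and turned the balance of calls, to 3130 higher and 3302 lower (48.7% higher against 52.5%). Of 236 named genes, 33 lost their call without moderation, and 16 to 21 when one npr1-1 array was left out.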
